A study of Rattus norvegicus with 8 samples.

Results

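The laminin chains of the tubular and vascular basement membranes were examined in the kidneys of rats fed a control diet or a high-phosphorus (HP) diet. All probe sets assigned to exactly 1 of 9 genes (Lama1, Lama2, Lama3, Lama4, Lama5, Lamb1, Lamb2, Lamb3 and Lamc1) were taken. All 9 genes were measured, by 13 of the 31099 probe sets of the Rat Genome 230 2.0 array, with several probe sets for 3 genes (Lama4, Lama5 and Lamc1) and 1 probe set for each of the other 6. The animals were male Wistar rats, labelled as 8 weeks old, and left kidney RNA from 4 rats per diet was hybridized, with 1 rat per array. After an acclimatization period on the control diet, rats received either the control diet (0.3% phosphorus) or the HP diet (1.2% phosphorus) for 24 days. In the HP diet KH2PO4 replaced corn starch, so potassium was added together with phosphorus. The 4 rats of each diet were chosen by the authors as the average ones of their group, and the spread between arrays is therefore that of selected animals.

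Laminins are secreted as trimers of an alpha, a beta and a gamma chain, which polymerize into the sheet that, with a collagen IV network joined to it by nidogens, forms the basement membrane. The chains a cell makes decide which trimer it deposits. Lama5 with Lamb1 and Lamc1 is found under most tubular epithelium, Lama5 with Lamb2 and Lamc1 in the mature glomerular basement membrane, and Lama4 in the basement membrane of vessels. Lama1 is a chain of embryonic and tubular basement membranes, and Lama2 is the chain of muscle. Lama3 and Lamb3 belong to the laminin that anchors stratified epithelia through hemidesmosomes. Cells bind laminins through integrins and dystroglycan.

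In the HP kidneys, 4 of the 13 laminin probe sets rose and none fell at an adjusted p under 0.05 (limma, Benjamini-Hochberg adjustment over 31042 probe sets). The 4 measured the vessel chain Lama4, the beta chains Lamb1 and Lamb3, and the gamma chain Lamc1. However, centring each array on its median turned the sign for Lama4, Lamb1 and this Lamc1 probe set. That centring takes the same amount from all probe sets of an array. Array medians differed by up to 65.1 millionths of a log unit, so small differences can turn sign. Quantile normalization turned the sign for Lamc1 and left Lama4 and Lamb1 without spread within diets, so these could not be tested. The called probe sets made up 30.8% of the laminin probe sets, while 2.95% of all probe sets tested were called higher and 1.13% lower. Over the 13 laminin probe sets the median standardized difference, which is the difference between diets divided by the pooled SD within diets, was 1.23, and over all probe sets it was -0.21. Unadjusted p (limma) was under 0.05 for 7 of the 13, and for 5889 of the 31042 probe sets tested. All 4 calls came from small margins, and each was lost when certain single arrays were left out.

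By chain class, 1 of 8 alpha probe sets, 2 of 3 beta probe sets and 1 of 2 gamma probe sets passed, with median standardized differences of 0.92, 3.98 and 3.96. The HP arrays were all above the control arrays in 5 laminin probe sets (38.5%), against 7.09% of all probe sets, and all below them in 1, against 5.81%. In the remaining 7 probe sets the diets overlapped. Rank products, the test that the study itself used, called 2 laminin probe sets higher (Lamb3 and the second Lamc1 probe set) and none lower, where 3.4% of all probe sets were called higher and 2.32% lower. Lamb3 was the 1 probe set called by both tests. In whole kidney, more RNA per cell and more cells of the type that makes a chain cannot be told apart.

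The sequences upstream of the annotated start of 4 genes are shown because Lama4, Lamb3 and Lamc1 had a probe set called higher, whereas no probe set of Lama5, given for contrast, was called. They are RefSeq sequences of the GRCr8 assembly, written from 5′ to 3′ on the strand of the gene. Capitals mark matches on either strand to a GC box, spelled GGGCGG, to a TATA box, spelled TATAAA, or to a CCAAT box, spelled by the letters of its name. The window of Lamb3 stops where the annotated gene begins.
Lama4, GRCr8 chr20:43946648-43946897, plus strand: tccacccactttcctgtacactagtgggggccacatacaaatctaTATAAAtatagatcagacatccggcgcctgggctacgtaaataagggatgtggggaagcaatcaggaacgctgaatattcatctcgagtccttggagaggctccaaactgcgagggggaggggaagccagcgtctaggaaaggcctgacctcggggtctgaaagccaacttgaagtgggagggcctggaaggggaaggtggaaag
Lamb3, GRCr8 chr13:107362303-107362513, plus strand: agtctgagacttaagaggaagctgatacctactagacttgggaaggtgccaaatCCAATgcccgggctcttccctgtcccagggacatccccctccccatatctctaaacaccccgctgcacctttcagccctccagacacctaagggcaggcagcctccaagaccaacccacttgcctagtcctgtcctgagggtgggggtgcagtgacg
Lamc1, GRCr8 chr13:68051987-68052236, minus strand: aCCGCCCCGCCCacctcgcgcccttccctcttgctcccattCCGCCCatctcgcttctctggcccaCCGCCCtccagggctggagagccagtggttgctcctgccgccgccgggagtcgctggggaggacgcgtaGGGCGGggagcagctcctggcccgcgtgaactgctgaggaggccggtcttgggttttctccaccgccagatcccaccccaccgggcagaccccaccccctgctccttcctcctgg
Lama5, GRCr8 chr3:187695975-187696224, minus strand: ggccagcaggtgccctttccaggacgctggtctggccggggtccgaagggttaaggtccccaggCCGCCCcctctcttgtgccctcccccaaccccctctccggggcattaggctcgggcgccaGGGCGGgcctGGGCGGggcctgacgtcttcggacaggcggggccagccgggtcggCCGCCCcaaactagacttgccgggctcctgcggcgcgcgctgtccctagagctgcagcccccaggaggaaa

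Motifs were searched in the 250 bases upstream of the start given in the table, for Lamb3 including the bases not printed, and such a window was available for 8 of the 9 genes, not for Lamb2. The GC box letters were present upstream of 4 of them (Lama2, Lama5, Lamb1 and Lamc1), compared with 30.5% of the 33469 windows of all genes. Lamc1 had 5 matches, of which the first and second share a base, Lama5 had 4 and Lamb1 had 2. The TATA box letters occurred in Lama4, 205 bases before the start, and in 12.9% of all windows. The CCAAT letters occurred in Lama2 and Lamb3 and in 34.0% of all windows. The AP-1 letters (TGANTCA, the same on both strands) were found 3 times upstream of Lama3 and in none of the other 7 windows, and 6.34% of all windows held them. None of the motifs searched was present in the windows of all 4 called genes, and the uncalled Lama5 shared the GC boxes of Lamc1.

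Values are given below for each array as its difference from the control mean of the same probe set, in millionths of a deposited log unit, in the order of arrays 1 to 4. The authors' summary method, the distribution free weighted method (DFW), shrinks differences according to their spread, so a difference is not a fold change. The pooled SD within diets ranged from 0.403 millionths (Lamb2) to 79.2 millionths (Lamb3), with medians of 2.03 for the laminin probe sets and 2.22 for all. Differences are therefore compared between probe sets only after division by that SD, and the brightness of one probe set is not set against that of another.

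Among the alpha chains, Lama4 was the 1 gene with a call. On its probe set 1389214_at (control mean 7.34) the control arrays were at 2.33, -1.38, -1.14 and 0.188 and the HP arrays at 7.36, 10.8, 9.08 and 5.95. All HP arrays were above all control arrays, the lowest HP array by 3.61 millionths over the highest control array. The difference was 8.29 ± 1.35 millionths (SE, n = 4 per diet), or 4.35 pooled SDs, with a limma adjusted p of 0.0243 and an exact permutation p of 0.0286, the smallest that the 70 arrangements of the arrays allow. Rank products did not call it (FDR 0.351), and the limma call was lost in turn without control replicate 2, 3 or 4 or HP replicate 1 or 3, with adjusted p reaching 0.0752 without control replicate 3. The other probe set of Lama4, 1396066_at (control mean 6.09), had overlapping diets, with a limma adjusted p of 0.601 at 0.85 pooled SDs. The probe sets of Lama4 thus differed in their call, and the sign was positive on both as deposited but negative on both after median centring.

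Lama5, the main alpha chain of tubules and glomeruli, had 3 probe sets, and none passed. On 1377428_at the control arrays were at -0.598, -0.778, 0.481 and 0.894 and the HP arrays at -1.63, -1.01, -6.13 and -1.82. Here every HP array was below every control array, but 1 of them (HP replicate 3) stood far below the others. The difference was -2.65 millionths, or -1.51 pooled SDs, with a limma adjusted p of 0.299 and an exact permutation p of 0.0286. On 1388932_at (control mean 8.98) the control arrays were at -0.272, -2.02, -5.56 and 7.85 and the HP arrays at 2.34, 3.20, 2.90 and 12.6, and control replicate 4 lay among the HP arrays. Its standardized difference was 0.99 (limma adjusted p 0.496), and that of the remaining probe set, 1396159_at, was 1.23 (limma adjusted p 0.440). The probe sets of Lama5 therefore had differences of both signs, and no direction is given for the gene. After quantile normalization 1377428_at was called lower (limma adjusted p 0.0025), where 32.0% of all probe sets then tested were called lower.

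Lama1, Lama2 and Lama3, each with 1 probe set, did not pass. For Lama2 the control arrays were at -0.0025, -5.59, -2.19 and 7.79 and the HP arrays at 1.98, 18.2, 8.82 and 12.4. The HP array was the higher one in 15 of the 16 pairs of arrays, with a difference of 10.3 ± 4.42 millionths (SE), or 1.65 pooled SDs, an unadjusted p of 0.0433 and a limma adjusted p of 0.245. For Lama3 the control arrays were at 2.47, -4.42, 0.632 and 1.32 and the HP arrays at -3.22, -10.4, -10.9 and -5.37, so that the HP array was higher in 1 of the 16 pairs. This was the most negative standardized difference among the laminins, at -2.18, with an unadjusted p of 0.0146 and a limma adjusted p of 0.141. The exact permutation p was 0.0571 for both Lama2 and Lama3. For Lama1 the HP arrays, at -4.01, -2.60, -0.931 and 1.65, spread across the control arrays, at 0.425, -0.423, -1.83 and 1.82, with a limma adjusted p of 0.643 at -0.72 pooled SDs.

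**Figure D1:**
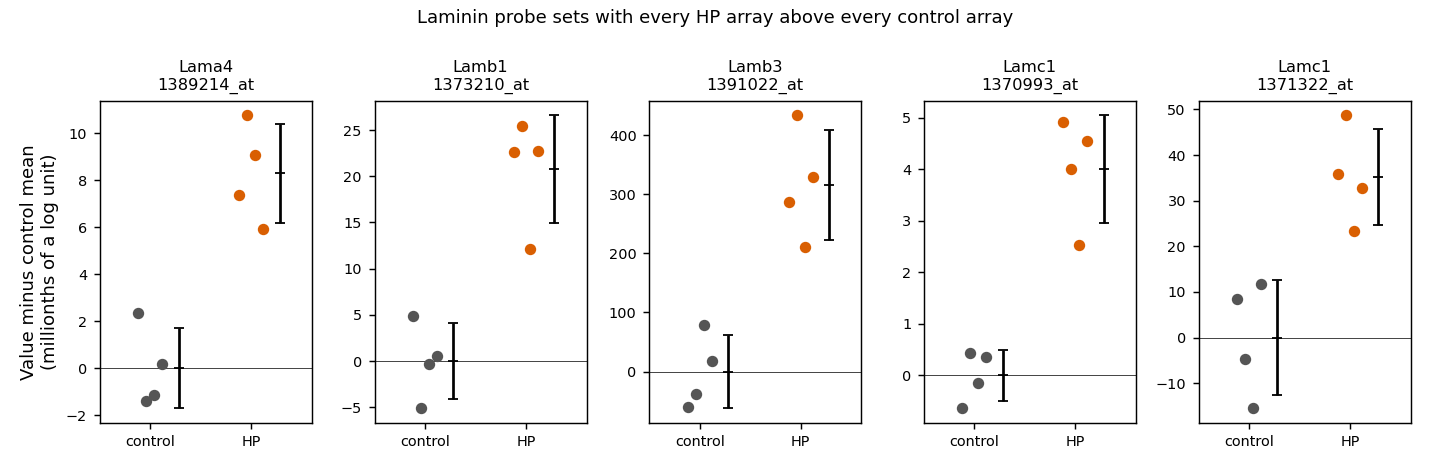
Value of each array (points) minus the control mean, in millionths of a deposited log unit, for the 5 laminin probe sets in which every HP array was above every control array. Bars show the mean ± SD of 4 arrays, and each panel has its own axis. HP arrays were at 211 to 434 millionths for Lamb3 and at 2.53 to 4.92 for Lamc1 1370993_at. These sizes are not compared between panels, and the standardized differences were 3.98 and 4.88. Centring each array on its median turned the sign for Lama4, Lamb1 and Lamc1 1370993_at, and quantile normalization turned it for the latter. Lama4, Lamb1 and Lamc1 1371322_at could not be tested after quantile normalization.

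Of the beta chains, Lamb1 and Lamb3 had a call and Lamb2 did not. Lamb1, the beta chain of most tubular laminin, was measured by 1373210_at (control mean 10.1), with control arrays at 4.89, -5.10, -0.292 and 0.507 and HP arrays at 22.7, 25.4, 12.2 and 22.8. The HP arrays were all higher, and HP replicate 3 was the lowest of them. The difference was 20.8 ± 3.57 millionths (SE, n = 4 per diet), a standardized difference of 4.11, with a limma adjusted p of 0.0264 and an exact permutation p of 0.0286. Rank products gave an FDR of 0.0967. The limma call remained only without HP replicate 3 (adjusted p 0.0159), and the removal of any other array brought the adjusted p to between 0.0503 and 0.0798. The sign for Lamb1 turned after median centring (standardized difference -0.23).

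Lamb3, whose loss in humans causes blistering of the skin, had the widest spread of the laminins, and its SD was at the 97.9th percentile of all probe sets. Its control arrays (1391022_at, control mean 6.68) were at -59.5, -38.0, 79.2 and 18.2 and its HP arrays at 287, 434, 211 and 330, so the lowest HP array exceeded the highest control array by 131 millionths. The difference was 315 ± 56.0 millionths (SE, n = 4 per diet), or 3.98 pooled SDs, with a limma adjusted p of 0.0287, an exact permutation p of 0.0286 and a rank product FDR of 0.00089. After median centring it was the 1 laminin probe set still called higher (adjusted p 2.42e-05), and after quantile normalization its adjusted p was 0.185. The limma call remained without HP replicate 2 or HP replicate 3 and was lost without any one of the other 6 arrays, at most to an adjusted p of 0.0780 when control replicate 2 was removed.

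Lamb2, the beta chain of the mature glomerular basement membrane, showed no difference beyond its spread. Its control arrays were at -0.438, 0.0907, -0.0943 and 0.442 and its HP arrays at -0.405, 0.208, 0.396 and -0.473. Each diet had arrays on both sides of the control mean. The difference was -0.0688 ± 0.285 millionths (SE), with a limma adjusted p of 0.956 and an exact permutation p of 0.800.

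Lamc1, the gamma chain of nearly all kidney laminins, was measured by 2 probe sets, and in both of them all HP arrays were above all control arrays. On 1370993_at (control mean 7.24) the control arrays were at -0.638, 0.432, -0.143 and 0.350 and the HP arrays at 4.92, 4.00, 2.53 and 4.55. The difference was 4.00 ± 0.580 millionths (SE, n = 4 per diet). At 4.88 pooled SDs it was the largest standardized difference among the 13 laminin probe sets, with a limma adjusted p of 0.0229. Rank products, which use unscaled differences, did not call it (FDR 0.767). The limma call remained without HP replicate 3 and was lost without any one of the other 7 arrays, at most to an adjusted p of 0.0727 when control replicate 3 was removed. Its sign turned after median centring (-0.79) and quantile normalization (-1.63).

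The second Lamc1 probe set, 1371322_at (control mean 9.13), had control arrays at 8.53, -4.73, -15.5 and 11.7 and HP arrays at 35.8, 48.7, 23.3 and 32.8. The difference was 35.2 ± 8.18 millionths (SE, n = 4 per diet), the pooled SD was 11.6 millionths, and the standardized difference was 3.04. It missed the limma threshold (adjusted p 0.0598) and passed that of rank products (FDR 0.0441), and the exact permutation p of both Lamc1 probe sets was 0.0286. The 2 tests therefore each called a different Lamc1 probe set. Targets for these arrays were primed from the poly(A) tail, so transcripts that share the 3′ end of a chain were not distinguished.

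**Figure D2:**
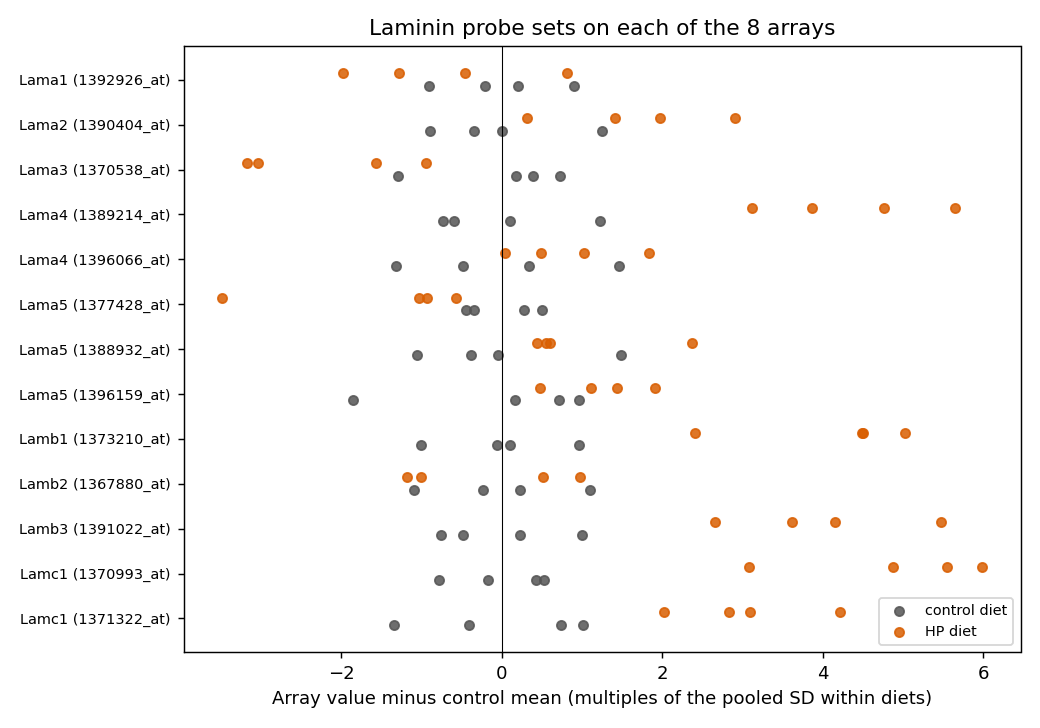
Each of the 13 laminin probe sets on each array, as the array value minus the control mean in multiples of the pooled SD within diets. Grey points are the 4 control arrays and orange points the 4 HP arrays. The HP points of Lama4 1389214_at, Lamb1, Lamb3 and both Lamc1 probe sets stand to the right of all control points, and those of Lamb2 lie among them. Median centring of the arrays turned the sign for Lama4, Lamb1 and Lamc1 1370993_at, and quantile normalization for the latter.

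**Figure D3:**
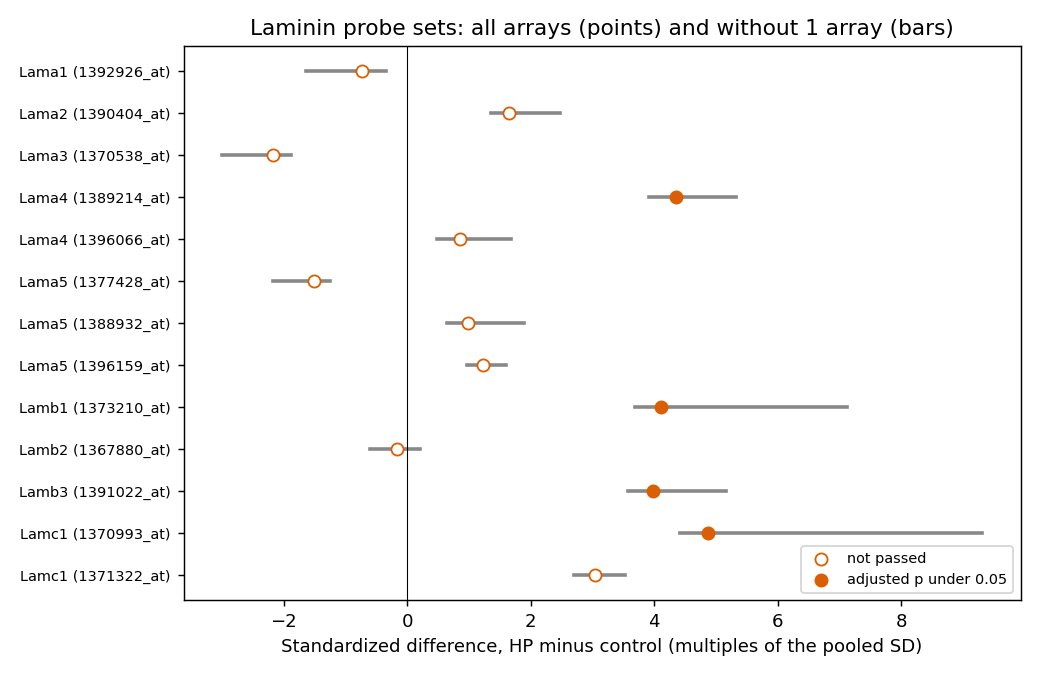
Standardized difference (HP minus control, in multiples of the pooled SD) of each laminin probe set with all 8 arrays (points) and its range when each array was left out in turn (bars). Filled points have an adjusted p under 0.05. The bar of Lamc1 1370993_at runs from 4.41 to 9.32 and that of Lamb1 from 3.69 to 7.12, and the bar of Lamb2 crosses 0. Median centring, which is not drawn, turned the sign for Lama4, Lamb1 and Lamc1 1370993_at, and quantile normalization for the latter. The probe sets of Lama4 and that of Lamb1 could not be tested after quantile normalization.

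In the 4 called probe sets every HP array was above every control array, so removing 1 array could not turn the sign. Leaving out 1 array changed how many of them passed, to between 0 and 3, with 0 left without control replicate 2, 3 or 4 or HP replicate 1 and 3 left without HP replicate 3. With 3 arrays in 1 diet, the number of calls over all probe sets also fell, from 915 higher to between 339 and 672. Another laminin chain, Lamc3, had overlapping diets (standardized difference 0.72, limma adjusted p 0.657).

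The genes that work with laminins were then counted, with each gene represented by its brightest probe set. Of 28 measured genes among 31 listed receptors, basement membrane components and anchoring genes, 10 rose and none fell by limma, where 2.95% of all probe sets were called higher and 1.13% lower. Rank products also called 10 higher and none lower, against 3.4% and 2.32% of all. The median standardized difference of the 28 genes was 2.23, against -0.21 for all probe sets. Without 1 array the number that rose was between 4 (without HP replicate 1) and 10 (without HP replicate 3), and it was 5 without control replicate 1 or control replicate 2 and 6 without control replicate 3. After median centring 5 rose, and the difference turned negative for Itga1 and Nid2. After quantile normalization 1 rose and 8 fell, where 2.15% of the probe sets then tested were called higher and 32.0% lower, and of the 10 genes Agrn and Nid2 turned negative while 5 could not be tested.

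Of 9 measured laminin receptor genes, 2 rose, and the median standardized difference was 2.23. Itgb1, the integrin beta chain shared by most laminin-binding integrins, differed by 70.4 ± 7.67 millionths (SE), or 6.50 pooled SDs, with a limma adjusted p of 0.00719, and it remained called whichever array was left out but not after median centring (adjusted p 0.326). Itga1, the alpha chain of an integrin for collagen and laminin, differed by 3.32 pooled SDs (adjusted p 0.0468; -0.40 pooled SDs after median centring), but 7 of the 8 removals of an array took it over the threshold, at most to 0.118 when control replicate 3 was removed. Itgb4, which binds the Lama3 and Lamb3 trimer, and Dag1, which encodes dystroglycan, differed by 2.50 and 2.44 pooled SDs (limma adjusted p 0.100 and 0.113), and rank products called Itgb4 higher (FDR 0.0161) but not Dag1 (FDR 0.731). The HP arrays were all above the control arrays for these 4 genes. For Itga7, the alpha chain of a laminin receptor of muscle, they were all below, with -2.27 pooled SDs and a limma adjusted p of 0.132.

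The basement membrane partners had the most calls, 8 of 15 measured genes, with a median standardized difference of 3.53. They were Col15a1, Smoc2, Col4a1, Col4a2, Sparc, Nid1, Nid2 and Agrn, although Nid2 turned negative after median centring and quantile normalization and Agrn after the latter. Rank products called the same genes without Nid2, and Col18a1 in addition (FDR 0.0248). Col15a1, a collagen at the outer face of basement membranes, had a standardized difference of 8.41 (adjusted p 0.00467), and Smoc2, a SPARC-related calcium-binding matrix protein, one of 7.09 (adjusted p 0.00643). Smoc2 had 2 other probe sets and Nid1 had 1, and none of these was called. Col15a1, Col4a1 and Sparc each had 1 other probe set, and it was called. Col4a1 and Col4a2, which encode the chains of the common collagen IV network, had standardized differences of 5.01 and 5.03 (adjusted p 0.0153 for both). Nid1 and Nid2 encode the nidogens that link this network to the laminin gamma chain, and Agrn encodes agrin, a proteoglycan that binds laminin.

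None of the 7 hemidesmosome and anchoring genes passed at an adjusted p under 0.05 by limma, and the median standardized difference was 0.77. An unadjusted p under 0.05 was found for 4 of them, and for 5889 of all 31042 probe sets tested. Of the 4 genes, Itgb4 is given above. Dst, whose epithelial product links integrins to keratin filaments, had -2.48 (adjusted p 0.113). Plec, encoding plectin, had 1.95 (adjusted p 0.178), and Cd151, a tetraspanin that partners laminin-binding integrins, had 1.90 (adjusted p 0.197). Rank products called Itgb4 higher (FDR 0.0161) and none of the other 6 genes of this list.

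**Figure D4:**
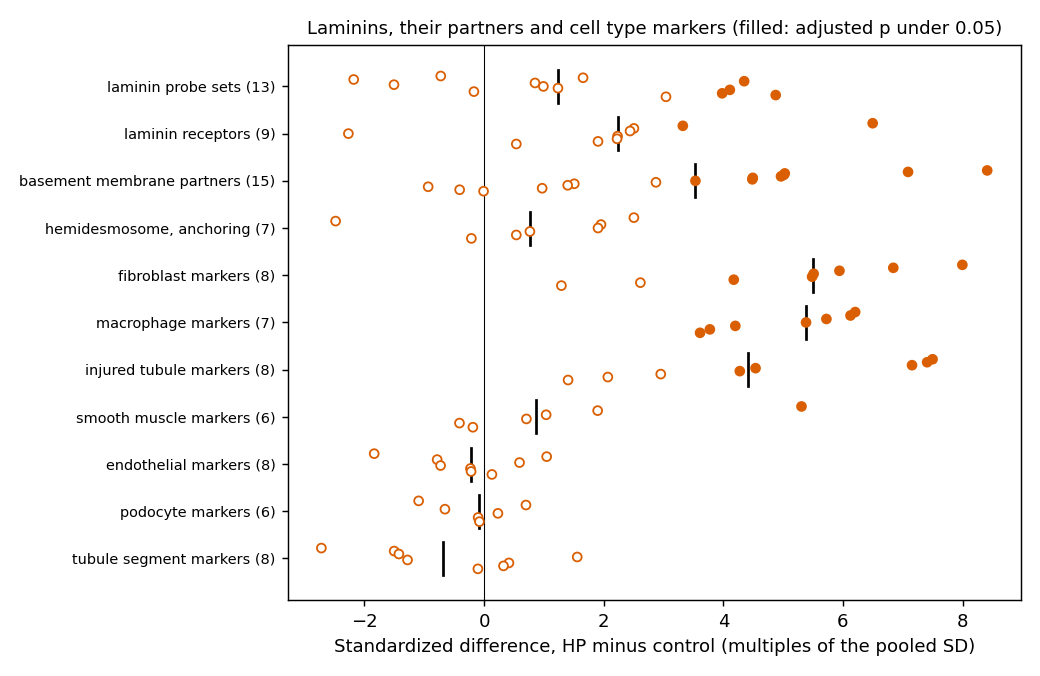
Standardized difference (HP minus control, in multiples of the pooled SD) of the 13 laminin probe sets and of each measured gene in the lists of partners and cell type markers, with the number of points in brackets. Filled points have an adjusted p under 0.05 and vertical bars are medians, which were 1.23 for laminins, 3.53 for basement membrane partners, 5.50 for fibroblast markers and -0.22 for endothelial markers. Median centring and quantile normalization turned the sign of part of the laminin points.

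Markers of some other cells rose in the HP kidneys by limma, where 2.95% of all probe sets were called higher and 1.13% lower. Fibroblast markers rose in 6 of 8 (summed level 69.9317 to 69.9339 on control arrays and 69.9412 to 69.9435 on HP arrays), macrophage markers in 7 of 7 (55.0479 to 55.0508 and 55.0585 to 55.0647) and markers of injured tubule in 5 of 8 (69.8934 to 69.9382 and 70.2673 to 70.4598). The sums add unscaled values and are not compared between lists. The last of these sums was carried by Havcr1, which differed by 422974 millionths, against 20290 for Clu and 6336 for Vim. Smooth muscle markers rose in 1 of 6, Tagln (45.3077 to 45.3079 and 45.3083 to 45.3086). After median centring Postn (limma adjusted p 0.326) and Krt8 (0.874) lost their call, and the other markers that rose stayed under 0.05. After quantile normalization Dcn, Pdgfra, Col1a2, Cd24 and Krt8 could not be tested. None of the 8 endothelial markers measured passed by limma, and their summed levels overlapped (69.4628 to 69.463 and 69.4626 to 69.4629). Vwf, the von Willebrand factor of endothelium, was the 1 with an unadjusted p under 0.05, at -1.84 pooled SDs with overlapping arrays (limma adjusted p 0.201), and it was called lower by rank products (FDR 0.00099) and by limma after median centring (adjusted p 0.0097). On their brightest probe sets, none of the 6 podocyte markers (49.2689 to 49.2692 and 49.2689 to 49.269) or the 8 tubule segment markers (94.676 to 94.6761 on the arrays of each diet) was called by limma or by rank products, and 1 tubule segment marker had an unadjusted p under 0.05. The segment marker Slc34a1 was at -1.50 pooled SDs there (limma adjusted p 0.308). The paper called Slc34a1 lower by rank products on another probe set, which was not counted here. It also reported this fall by in situ hybridization. The deposited values have a floor well above 0, so a marker that is absent cannot be told from a dim one, and the labelled tissue was not checked further. The part of these cells in the laminin differences was not tested.

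The patterns most like those of the leading alpha, beta and gamma probe sets were found by Pearson correlation over the 8 arrays. Because the arrays form a pair of diet groups, any gene with a clear difference between diets scores highly, and 606, 513 and 437 probe sets had an r over 0.9 with Lama4, Lamb1 and Lamc1. For Lama4 the closest genes were Sat1 (0.992), a polyamine acetyltransferase, and the class II histocompatibility genes RT1-Da (0.992) and RT1-Ba (0.986). For Lamb1 they were Shfl (0.995), an antiviral factor, Gpr34 (0.988), a receptor of myeloid cells, and Efemp2 (0.984), an elastic fibre protein. Reg3b (0.988), a secreted lectin, Capn5 (0.982), a calpain protease, and Col1a2 (0.982), a chain of collagen I, were closest to Lamc1. After the diet means were removed, the correlations over the 8 arrays among the 4 called laminin probe sets ranged from -0.55 (Lama4 with Lamc1) to 0.55 (Lamb1 with Lamb3). Whether the chains varied together within a diet was not tested.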

How the data were processed

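Kidney RNA of 8 rats was hybridized to Affymetrix arrays after labelling from the 3′ end. The authors summarized probes over all arrays with DFW in R, and deposited log values of unstated base, read here as log2. Values were used as deposited. Probe sets were named from the platform annotation (20832 with 1 symbol). Limma 3.58.1 was run without the 57 Affymetrix control probe sets (R 4.3.3, lmFit and eBayes, Benjamini-Hochberg). Rank products used 16 pairs of arrays and 1000 permutations. Exact permutation tests were two-sided. Limma and rank products were tested on simulated data. For rank products the simulated probe sets had equal spread, unlike the real ones, so that check does not cover unequal spread. Python 3.11.15 with numpy 2.4.6, pandas 2.3.3 and scipy 1.17.1 was used. The number of arrays limits the precision.

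The members, gene lists and tests were chosen with earlier results of these data known. All laminin probe sets are described. Of the other lists, up to 4 genes with the smallest p are named, together with the members that passed. Itga7, Vwf and Col18a1 were named after their values were seen. Replicate numbers were taken only to name the rats. In their deviations from diet means, same-numbered arrays correlated at 0.0015 to 0.12 and differently numbered arrays at -0.165 to 0.0842. A batch shared by same-numbered arrays was not tested. Alternatives were other scalings, moderation, a replicate block, a filter on low values and removal of each array. Another centring was added after seeing the data.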

Additional observations from a re-analysis of the deposited data

Results flagged for a closer look

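In 3 of 50 groups of 4 arrays (25 laminin and related probe sets, each diet tested separately), 1 array stood apart from the other arrays of its diet, where chance gives about 1 in 20. On Lama5 1377428_at this was HP replicate 3, whose gap to the nearest HP array was 0.842 of the range of the HP arrays. On Lama5 1388932_at it was HP replicate 4 (0.915), and on Lamc3 1393896_at it was HP replicate 4 again (0.866). None of these probe sets passed by limma.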

How the results depend on the processing

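With 4 laminin probe sets called higher as deposited, limma also called 4 after centring on the median deviation, with trend and robust moderation and after the filter on low values. It called 1 (Lamb3) after centring on array medians, 0 with the replicate block, and 0 to 3 without 1 array. After quantile normalization it called 0, but Lama4 1389214_at and Lamb1 could not be tested there. Laminin probe sets called lower numbered 0, and 2 (Lama1 and Lama5 1377428_at) after quantile normalization, where 32.0% of all probe sets then tested were called lower. Rank products called 2 higher, and 0 after quantile normalization, 4 after division by the SD, 1 after the filter on low values and 1 to 2 without 1 array. They called 0 lower, and 1 after quantile normalization. Partner genes called higher numbered 10, and 1, 5 and 4 after quantile normalization, median centring and the replicate block, and 4 to 10 without 1 array. Their number stayed at 10 after centring on the median deviation, with trend and robust moderation and after the filter on low values. No partner gene was lower, and 8 were after quantile normalization. With the replicate block no laminin call was gained, and Itgb1 was at an adjusted p of 0.0556.

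Standardized differences turned after median centring for Lama2 (-0.62), Lama4 1389214_at (-0.65) and 1396066_at (-0.90), Lama5 1388932_at (-0.72) and 1396159_at (-0.91), Lamb1 (-0.23) and Lamc1 1370993_at (-0.79), and after quantile normalization for Lamc1 1370993_at (-1.63). That of Lamb2 turned after centring on the median deviation (0.19) and ran from -0.60 to 0.21 without 1 array. Lamb3 (4.13) and Lamc1 1371322_at (0.21), which had the largest differences before division by the SD, stayed positive after median centring. Array medians differed by up to 65.1 millionths. They stood 3.29, 5.80, 61.0 and 1.09 millionths above the lowest on control arrays 1 to 4, and 0, 65.1, 58.2 and 58.8 on HP arrays 1 to 4. In contrast, the median deviation of an array from the probe set means lay between -0.22 and 0.15 millionths. Quantile normalization left 15787 probe sets to test and called 340 higher and 5044 lower, against 915 and 350 as deposited. It left out 7 laminin probe sets, among them Lama4 1389214_at, Lamb1 and Lamc1 1371322_at. Of 173 laminin values under the alternatives, 129 kept direction and call, 30 lost the call, 2 gained one and 12 turned. The cause was not tested.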
